A study of Mus musculus with 24 samples.

Results

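The circadian clock genes were examined in mouse embryonic fibroblasts as a set of 10 genes, Arntl, Clock, Per1, Per2, Per3, Cry1, Cry2, Nr1d1, Nr1d2 and Dbp, which hold the core loop of the clock and an output gene. The set is given by gene name, with no threshold on a measured value, and holds 10 of the 55471 genes in the count tables. All 10 passed the filter on low counts, and 17522 genes were tested in all.

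The mammalian clock is a feedback loop of transcription that runs in most cells, cultured fibroblasts included. The CLOCK and BMAL1 proteins, the latter encoded by Arntl, bind together to E-box sequences and switch on the Per, Cry and Nr1d genes, and the PER and CRY proteins then block them. The REV-ERB repressors, encoded by Nr1d1 and Nr1d2, and the activating ROR proteins act on Arntl through shared response elements, while DBP carries the rhythm to genes with D-box sequences. Per1 is also a known target of CREB, the factor that the CRTC coactivators serve, and LKB1, encoded by Stk11, is the upstream kinase of the AMPK and SIK kinases that hold CRTC proteins inactive.

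RNA of 3T3 MEFs, an immortalized fibroblast line, was sequenced in 24 libraries, with 3 libraries in each of 8 groups. The genotypes were wild-type (WT), LKB1 knockout (KO), and 2 clones in which Crtc2 was knocked out as well as LKB1, DKO_A1 and DKO_A2, so that LKB1 was knocked out in all cells other than WT. Cells of each genotype were left untreated or were given the inflammatory cytokine IL-1β, and were taken after 6 hours. WT and KO cells were separate established lines and each DKO genotype was a single clone made by CRISPR from the KO line, so that the genotype and the history of the line or clone cannot be told apart. The labels do not say whether the 3 libraries of a group came from separate cultures, and p-values then measure the spread between these libraries, which may be technical. For the RNA libraries the study's methods name no step that synchronizes the clocks of the cells. In bulk RNA, fewer cells expressing a gene and less RNA per cell cannot be told apart.

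Counts on genes lay between 38842901 and 48594394 per library. Stk11 was at 83.4 to 87.9 CPM (the share of counts scaled to a fixed library total with TMM factors) in the WT libraries and at 16.3 to 23.2 CPM in all others. Crtc2 was at 56.5 to 68.5 CPM in the WT libraries, at 79.1 to 84.6 CPM in the KO libraries and at 41.1 to 56.4 CPM in the clones. Untreated, it was thus 1.39 times as high in KO as in WT, and 0.734 times in DKO_A1 and 0.853 times in DKO_A2. Of 8 fibroblast markers, Thy1 was under 1 CPM in every library, and the summed level of the list was 6108 to 9422 CPM over the 8 group means. Single members of that list differed far more between untreated WT and KO, Pdgfra with means of 4.58 and 342 CPM and Col1a2 with 780.1 and 63.0 CPM. All 5 epithelial markers were under 1 CPM in every library, with sums of 0.182 to 0.484 CPM. Of the endothelial markers 3 of 4 were under 1 CPM, and their sum was 0.485 to 0.513 CPM in the WT groups and 2.33 to 3.26 CPM in the others, of which Kdr made 0.39 to 0.42 CPM in the WT groups and 2.17 to 3.10 CPM in the others. Of the blood and macrophage markers 3 of 5 were under 1 CPM, and their sum was 3.35 to 4.28 CPM in the WT groups, 5.01 to 5.07 CPM in the KO groups and 7.09 to 8.0 CPM in the clones. The neural list summed to 0.647 to 1.07 CPM. No marker was at 0 in all libraries, and the part of these markers in the differences between genotypes was not tested. The leading principal component took 67.2% of the variance and set the WT libraries, at -156 to -152, apart from all others, at 43.2 to 67.0.

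Promoter windows of 300 bases around the start of a RefSeq transcript (GRCm38.p6) were given for 9 of the 10 genes, all but Per2. Both strands were searched for the E-box CACGTG and its variant CACGTT, for the cyclic AMP response element (CRE) TGACGTCA and its short form TGACG, for the D-box TTATGTAA and its form TTACGTAA, and for the core AGGTCA of the ROR and REV-ERB element. The short CRE form lies within the full one. The longer element AGTAGGTNA was added after the Arntl window had been seen. A gene may have several windows, and the shares here count genes with a match in at least 1 of theirs, out of 27025. CACGTG was in a window of 8.09% of genes, Cry1 and Per1 among the clock genes. CACGTT was found for 5.44% of genes and for Cry1, Cry2 and Nr1d1. TGACG was found for 23.0% of genes and for Cry1, Cry2 and Per1. The core AGGTCA was found for 18.1% of genes and for Arntl, Clock, Nr1d2 and Per1. The full CRE was found for 2.03% of genes and TTACGTAA for 0.126%, and neither was in a window of the 9 genes. The 4 windows that follow are examples from the activator, Per and Cry genes that between them hold each kind of element found, and capitals mark the matches. The Cry2 window, with 1 CACGTT and 1 TGACG, is not shown. The Arntl window, chr7:113207261-113207560 on the + strand, holds AGTAGGTNA from its bases 243 and 279 on, an element found for 0.699% of genes.
Arntl: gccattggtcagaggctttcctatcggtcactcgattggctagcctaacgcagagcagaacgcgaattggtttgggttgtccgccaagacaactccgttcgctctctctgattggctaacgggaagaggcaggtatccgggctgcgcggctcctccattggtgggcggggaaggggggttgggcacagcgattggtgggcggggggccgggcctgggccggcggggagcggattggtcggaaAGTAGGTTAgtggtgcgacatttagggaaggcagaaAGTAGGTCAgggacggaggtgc
The Per3 window, chr4:151044616-151044915 on the - strand, holds the D-box TTATGTAA at bases 46 to 53 and 93 to 100, and 1.11% of genes have a window with it.
Per3: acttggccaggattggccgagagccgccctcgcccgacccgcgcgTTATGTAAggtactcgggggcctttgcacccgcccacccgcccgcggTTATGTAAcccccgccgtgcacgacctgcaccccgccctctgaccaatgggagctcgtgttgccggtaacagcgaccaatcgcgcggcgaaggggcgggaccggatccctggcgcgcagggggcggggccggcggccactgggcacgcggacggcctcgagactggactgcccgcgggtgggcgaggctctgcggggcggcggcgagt
The Per1 window, chr11:69098699-69098998 on the + strand, holds the short CRE form at bases 5 to 9, the E-box at bases 85 to 90 and the core AGGTCA, read as its reverse complement TGACCT, at bases 114 to 119.
Per1: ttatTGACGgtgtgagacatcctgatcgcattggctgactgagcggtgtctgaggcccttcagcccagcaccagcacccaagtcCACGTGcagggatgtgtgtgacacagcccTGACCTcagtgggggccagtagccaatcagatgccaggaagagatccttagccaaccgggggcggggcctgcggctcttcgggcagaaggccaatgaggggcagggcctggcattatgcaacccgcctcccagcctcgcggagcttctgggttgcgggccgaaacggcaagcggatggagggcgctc
The Cry1 window, chr10:85185005-85185304 on the - strand, holds the E-box variant, read here as its reverse complement AACGTG, at bases 172 to 177, the E-box at bases 191 to 196 and the short CRE form at bases 243 to 247.
Cry1: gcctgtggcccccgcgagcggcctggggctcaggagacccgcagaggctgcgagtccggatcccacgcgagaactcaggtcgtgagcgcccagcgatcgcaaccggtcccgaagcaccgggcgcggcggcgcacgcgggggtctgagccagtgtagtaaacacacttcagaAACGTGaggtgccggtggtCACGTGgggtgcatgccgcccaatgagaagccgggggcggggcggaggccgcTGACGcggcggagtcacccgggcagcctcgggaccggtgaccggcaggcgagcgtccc
A match describes letters and not bound protein, and a window without a match says nothing about the factor.

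All 10 clock genes were expressed. Per length, as RPKM averaged over the 24 libraries, Nr1d2 stood highest at 14.5 and Clock followed at 12. Cry1 was at 6.83 RPKM, Per1 at 6.69 and Nr1d1 at 4.74. Arntl was at 2.87 RPKM, Per2 at 2.44, Cry2 at 2.37 and Per3 at 2.17. Dbp, the output factor, was lowest at 1.58 RPKM. The ranges of any 2 neighbours in this order overlapped over the libraries (Nr1d2 8.07 to 19.2, Clock 8.97 to 14.6), so the order holds for the means. Counts per library ran from 65 for Dbp to 9290 for Clock. Dbp also differed most between groups, by 4.34 times between its highest and lowest group mean, followed by Cry2 with 3.72 times and Per2 with 3.11 times. Per1 varied least, by 1.25 times, with Nr1d2 at 1.31 and Clock at 1.39 times. The repressor genes Cry1 and Cry2 stood on opposite sides, since Cry1 was highest and Cry2 lowest in WT cells.

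**Figure D1:**
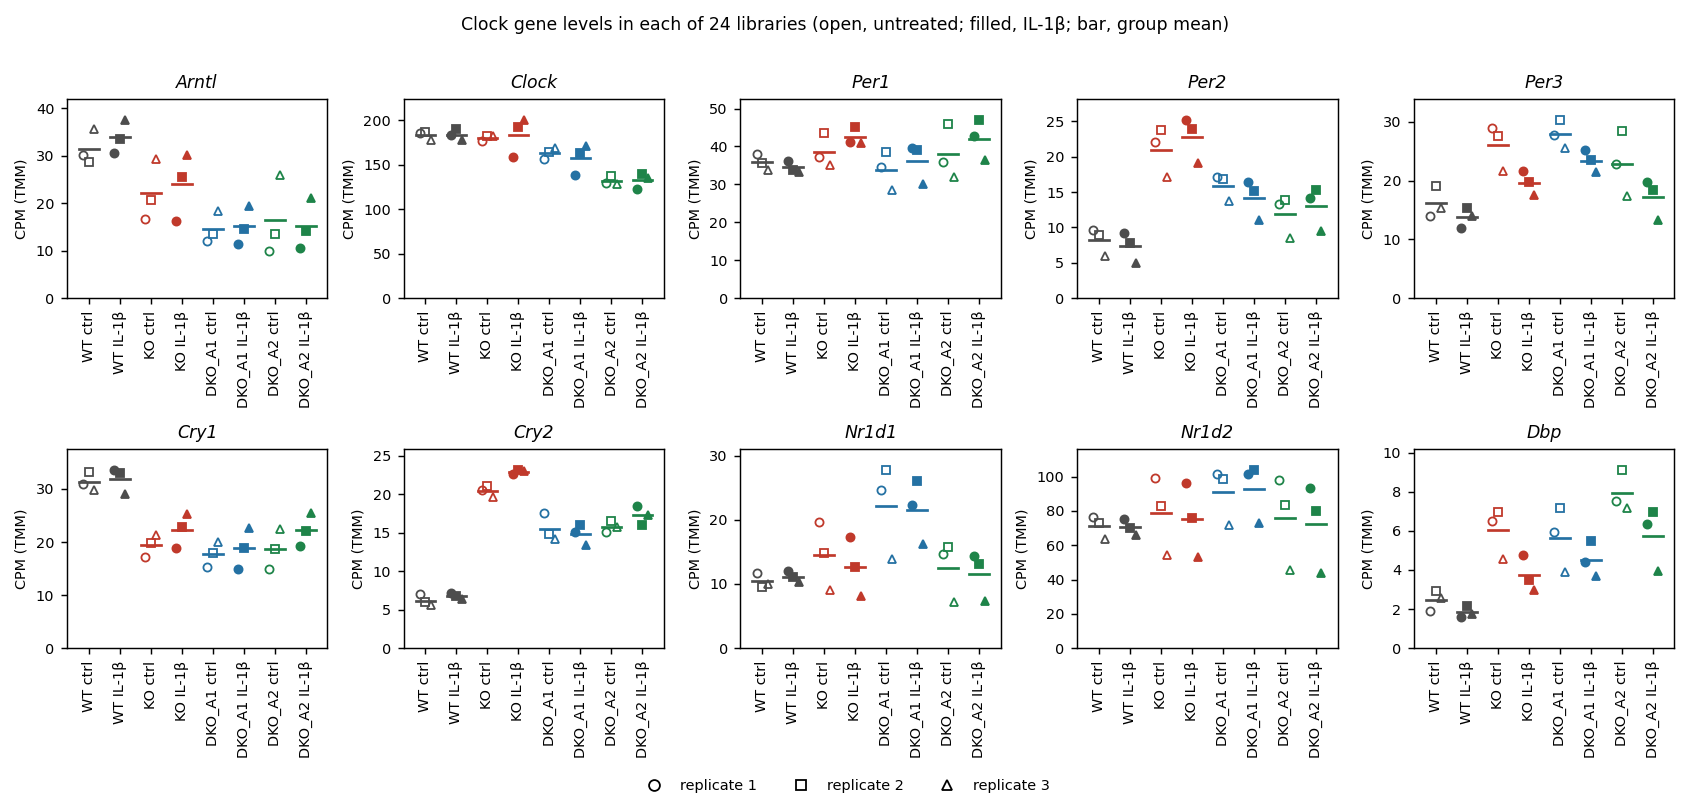
TMM-scaled CPM of the 10 clock genes (y axis, a separate linear scale from 0 for each gene) in each of the 24 libraries, by group on the x axis, with open symbols for untreated and filled symbols for IL-1β libraries, the shape giving the replicate number and bars the group means. Cry2 and Per2 sit lowest in both WT groups and highest in both KO groups, and Cry1 sits highest in the WT groups.

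The comparison of KO with WT asked how the clock genes stood in cells without LKB1. Untreated KO cells had higher RNA of Cry2, Per2, Dbp and Per3, and lower RNA of Cry1. Cry2, a repressor of CLOCK and BMAL1, had 6.99, 5.96 and 5.56 CPM in the WT libraries and 20.6, 21.0 and 19.6 CPM in the KO libraries. It was 3.30 times as high (log2 fold change 1.72 ± 0.10 SE, FDR 2.85e-12), and the groups did not overlap. Per2, its partner in the repressor complex, had 9.62, 8.93 and 6.02 CPM in WT and 22.1, 23.8 and 17.1 CPM in KO libraries, again without overlap. Its log2 fold change was 1.35 ± 0.24 (FDR 5.26e-05). Dbp, an output gene driven by CLOCK and BMAL1, had 1.90, 2.95 and 2.58 CPM in WT and 6.52, 6.98 and 4.57 CPM in KO libraries. The groups did not overlap, and the log2 fold change was 1.28 ± 0.26 (FDR 0.000205). Per3 had 14.0, 19.1 and 15.3 CPM in WT and 28.9, 27.7 and 21.6 CPM in KO libraries, also apart, with a log2 fold change of 0.69 ± 0.17 (FDR 0.00147).

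Cry1, the other cryptochrome, went the other way in untreated cells. It had 30.9, 33.3 and 29.8 CPM in WT and 17.2, 19.9 and 21.4 CPM in KO libraries, without overlap, and was 0.622 times as high (log2 -0.68 ± 0.16, FDR 0.000752). Adjusted p-values (FDR) are from edgeR's quasi-likelihood test with Benjamini-Hochberg adjustment over all genes tested. Genes with an FDR under 0.05 count as called. Of the 10 clock genes 4 were called higher and 1 lower, where 30.1% of all genes were higher and 25.8% lower. Their median log2 fold change was 0.31, beside 0.04 over all genes. The activator genes were not called. Arntl had 30.2, 28.6 and 35.5 CPM in WT and 16.5, 20.6 and 29.4 CPM in KO libraries, which overlapped, with a log2 fold change of -0.50 (95% interval -1.11 to 0.10, FDR 0.178). For Clock the interval was -0.18 to 0.13, narrower than for any other member. The intervals of Per1 (-0.15 to 0.37), Nr1d1 (-0.17 to 1.13) and Nr1d2 (-0.40 to 0.70) also held 0.

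After IL-1β the same comparison gave a like set of calls. Cry2 had 7.11, 6.84 and 6.36 CPM in WT and 22.6, 23.1 and 23.0 CPM in KO libraries (log2 1.76 ± 0.10, FDR 2.02e-12). Per2 had 9.26, 7.77 and 4.94 CPM in WT and 25.2, 23.9 and 19.1 CPM in KO libraries (log2 1.63 ± 0.24, FDR 5.79e-06). In both genes every KO library was above every WT library. Dbp was higher by 1.03 ± 0.26 on the log2 scale (FDR 0.00213), and Cry1 lower, at -0.51 ± 0.15 (FDR 0.00722). Per3 was higher by 0.52 ± 0.17 (FDR 0.0132). The Per3 call was lost without WT replicate 1 (0.42, FDR 0.0676) and without KO replicate 1 (0.44, FDR 0.0545). The count was again 4 higher and 1 lower, beside 30.2% and 27.1% of all genes, with a median of 0.24 against 0.03 over all genes. Per1, at 0.30 ± 0.13 (FDR 0.0599), was just outside the threshold. Replicate numbers paired the libraries in this comparison. The replicate block fits 1 effect per number over all 24 libraries, not over these groups alone. With it 7 genes were called, where 65.9% of all genes were. The added ones were Arntl at -0.54 ± 0.14 (FDR 0.00176) and Per1 at 0.30 ± 0.08 (FDR 0.00226).

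**Figure D2:**
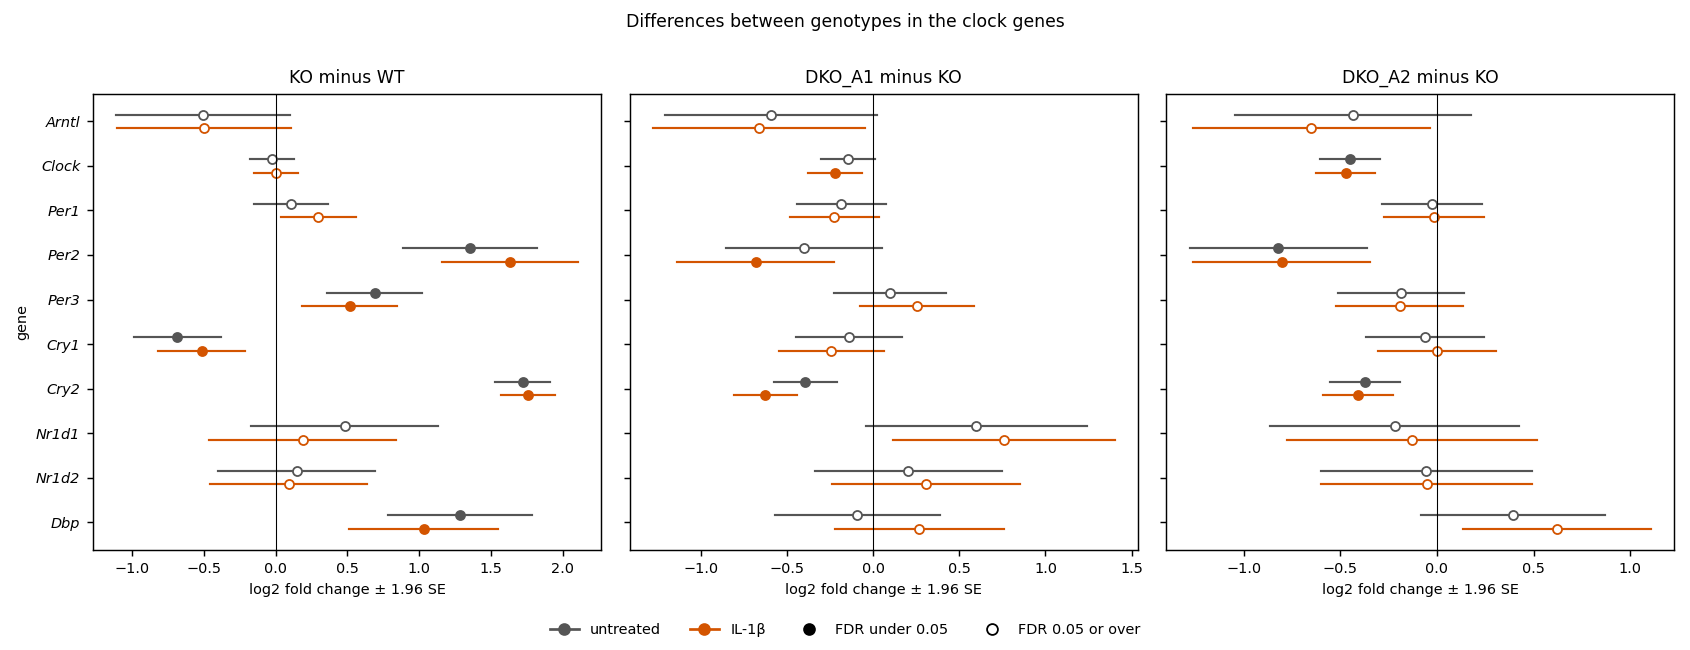
Log2 fold change (x axis) of each clock gene (y axis) for KO minus WT, DKO_A1 minus KO and DKO_A2 minus KO, with bars for the 95% interval, grey for untreated and orange for IL-1β libraries, and filled symbols for an FDR under 0.05. Cry2, Per2, Dbp and Per3 lie right of 0 and Cry1 left of it in KO against WT, and Cry2 lies left of 0 in both clones against KO under both treatments.

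Of the called genes, Cry1 lies on chromosome 10, which also holds Stk11, in a stretch whose other genes also had lower values in KO cells. In untreated cells the median log2 fold change was -0.44 over the 813 tested genes of that chromosome and -0.38 over the 150 within 5 Mb of Cry1, beside -0.68 for Cry1 itself. Around Arntl the 65 genes within 5 Mb had a median of -0.33, beside -0.50 for Arntl. The medians around the genes higher in KO cells lay nearer to 0. The median was 0.07 over 63 genes around Cry2 and 0.05 over 89 genes around Per2. It was -0.08 over 145 genes around Dbp and 0.14 over 137 genes around Per3. In the untreated clones against KO the genes within 5 Mb of Cry1 had higher medians, 0.41 in DKO_A1 and 0.28 in DKO_A2, beside -0.14 and -0.06 for Cry1 itself. The part of these neighbourhoods in the values of Cry1 and Arntl was not tested.

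Each clone against KO asked what the further loss of CRTC2 went with. Cry2 was lower in both clones under both treatments, to a level still above WT. Untreated libraries had 17.6, 14.8 and 14.2 CPM of Cry2 in DKO_A1 and 15, 16.5 and 15.8 CPM in DKO_A2, all below the KO libraries and above the WT libraries. The log2 fold change against KO was -0.39 ± 0.09 in DKO_A1 (FDR 0.00215) and -0.37 ± 0.09 in DKO_A2 (FDR 0.0039). After IL-1β Cry2 had 15.1, 16 and 13.4 CPM in DKO_A1 and 18.5, 16 and 17.3 CPM in DKO_A2. Its log2 fold change was then -0.63 ± 0.09 (FDR 2e-05) and -0.41 ± 0.09 (FDR 0.00178).

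Per2 was lower in DKO_A2 under both treatments. It had 13.3, 13.8 and 8.48 CPM in untreated and 14.1, 15.4 and 9.55 CPM in IL-1β libraries of DKO_A2, all below the KO libraries of the same treatment. The log2 fold change against KO was -0.82 ± 0.23 untreated (FDR 0.00971) and -0.81 ± 0.23 after IL-1β (FDR 0.0107). Both calls were lost without replicate 3 of DKO_A2, at -0.60 (FDR 0.0804) and -0.63 (FDR 0.0686). With the replicate block, fitted over all 24 libraries, the values were -0.84 ± 0.09 (FDR 7.76e-08) and -0.82 ± 0.09 (FDR 8.89e-08). In DKO_A1 Per2 had 17.1, 16.8 and 13.8 CPM untreated, of which the highest lay level with the lowest KO library, and was not called (log2 -0.40, interval -0.86 to 0.05). After IL-1β it had 16.4, 15.1 and 11 CPM there and was called lower (-0.68 ± 0.23, FDR 0.0259). That call was lost without KO replicate 1 (-0.60), KO replicate 2 (-0.64) or DKO_A1 replicate 3 (-0.51).

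Clock, the DNA-binding partner of BMAL1, was lower in DKO_A2. It had 129, 138 and 129 CPM in untreated DKO_A2 and 177, 182 and 183 CPM in untreated KO libraries, which were apart (log2 -0.45 ± 0.08, FDR 0.000161). After IL-1β it had 123, 139 and 135 CPM in DKO_A2 and 159, 193 and 200 CPM in KO libraries, again apart (-0.47 ± 0.08, FDR 9.37e-05). In DKO_A1 after IL-1β it had 139, 164 and 171 CPM, which overlapped KO, and was called at -0.22 ± 0.08 (FDR 0.0316). This call was lost with unstranded counts (-0.19, FDR 0.0725), when the fit held just these groups (-0.21) and without DKO_A1 replicate 1 (-0.14), KO replicate 2 (-0.19) or KO replicate 3 (-0.15).

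The counts of clock genes called lower against KO were 1 of 10 in untreated DKO_A1, beside 16.4% of all genes, and 3 of 10 in untreated DKO_A2, beside 15.1%. After IL-1β they were 3 of 10 in DKO_A1, beside 17.3%, and 3 of 10 in DKO_A2, beside 15.8%. Without KO replicate 2 of the IL-1β libraries the DKO_A1 count was 1. None was called higher in these comparisons. Of all genes, 18.9% were higher in DKO_A1 and 17.1% in DKO_A2 untreated, and 19.4% and 17.1% after IL-1β. The median log2 fold changes were -0.14 and -0.20 untreated and -0.22 and -0.16 after IL-1β, in DKO_A1 and DKO_A2, where the medians of all genes were 0.02, 0.02, 0.01 and 0.01. Both clones were set against the same KO libraries, so these comparisons are not independent. Arntl was not called in any of them, with values of -0.60, -0.44, -0.67 and -0.65 in the same order and standard errors of 0.31 each.

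The replicate numbers paired 3 of these comparisons, all but that of untreated DKO_A1. With the replicate block, 5 clock genes were called in untreated DKO_A2, beside 45.9% of all genes, and Arntl (-0.48 ± 0.14, FDR 0.00893) and Dbp (0.41 ± 0.16, FDR 0.0379) were the added ones. In DKO_A1 after IL-1β 7 were called, beside 49.1%. The added ones were Arntl (-0.66 ± 0.15, FDR 0.000554), Per1 (-0.23 ± 0.08, FDR 0.018), Nr1d1 (0.79 ± 0.17, FDR 0.000491) and Nr1d2 (0.33 ± 0.13, FDR 0.0371). In DKO_A2 after IL-1β 5 were called, beside 46.6%, with Arntl (-0.66 ± 0.14, FDR 0.000577) and Dbp (0.60 ± 0.17, FDR 0.00445) added. Without the block Dbp had 0.62 ± 0.25 in that comparison (FDR 0.0612).

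Against WT, both clones differed in Arntl as well. Untreated libraries had 11.9, 13.6 and 18.4 CPM of Arntl in DKO_A1 and 9.89, 13.4 and 25.9 CPM in DKO_A2, all below the lowest WT library at 28.6 CPM. Arntl was 0.466 times as high in DKO_A1 as in WT (log2 -1.10 ± 0.31, FDR 0.00524) and 0.521 times as high in DKO_A2 (-0.94 ± 0.31, FDR 0.0131). Without DKO_A2 replicate 1 the latter was -0.73 (FDR 0.0505). After IL-1β the values were -1.16 ± 0.32 (FDR 0.00334) and -1.15 ± 0.31 (FDR 0.0033). Untreated Nr1d1, whose protein represses Arntl, had 24.6, 27.7 and 13.9 CPM in DKO_A1 and 11.8, 9.46 and 10.1 CPM in WT libraries, without overlap. It was called higher in DKO_A1 untreated (1.08 ± 0.33, FDR 0.00866) and after IL-1β (0.95 ± 0.33, FDR 0.0187). The latter call was lost without DKO_A1 replicate 2 (0.79) or WT replicate 3 (0.89). In DKO_A2 Nr1d1 had 14.6, 15.7 and 7.20 CPM untreated, a spread that crossed the WT libraries, and was not called (0.26, interval -0.39 to 0.91).

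Cry2 was called higher than in WT and Cry1 lower in both clones under both treatments. The Cry2 log2 fold changes against WT ran from 1.13 in DKO_A1 after IL-1β to 1.35 in DKO_A2, and those of Cry1 from -0.82 in untreated DKO_A1 to -0.51 in DKO_A2 after IL-1β. Dbp was higher in all 4 comparisons, most so in untreated DKO_A2, where it had 7.51, 9.10 and 7.18 CPM (1.68 ± 0.26, FDR 7.69e-06). Per3 was higher in DKO_A1 untreated (0.79 ± 0.17, FDR 0.000445) and after IL-1β (0.77 ± 0.17, FDR 0.000587). In DKO_A2 after IL-1β it was not called (0.32 ± 0.17, FDR 0.109). In untreated DKO_A2 it was called at 0.50 ± 0.17 (FDR 0.0135), a call lost when the fit held just these groups (0.50, FDR 0.0506) and without WT replicate 1 (0.41), WT replicate 3 (0.43), DKO_A2 replicate 1 (0.46) or DKO_A2 replicate 2 (0.29). Clock was lower in DKO_A2, at -0.48 ± 0.08 untreated and -0.47 ± 0.08 after IL-1β. In DKO_A1 it was called after IL-1β alone (-0.22 ± 0.08, FDR 0.0213), not with upper quartile scaling (-0.11), with no filter on low counts (-0.19), nor without DKO_A1 replicate 1 (-0.13) or WT replicate 2 (-0.19).

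In all, 7 of 10 clock genes were called in untreated DKO_A1 against WT, beside 55.4% of all genes, and 8 of 10 after IL-1β, beside 56.9%. In DKO_A2 6 of 10 were called untreated, beside 60.6%, and 6 of 10 after IL-1β, beside 60.8%. Per2 made part of the difference, as it was higher in DKO_A1 under both treatments and in DKO_A2 after IL-1β (0.83 ± 0.24, FDR 0.00521), while untreated DKO_A2 had 0.53 ± 0.24 (FDR 0.0603). Per1 and Nr1d2 were not called in any of these 4 comparisons.

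The 2 clones were also compared directly. Clock was lower in DKO_A2 than in DKO_A1 untreated (-0.30 ± 0.08, FDR 0.00506) and after IL-1β (-0.25 ± 0.08, FDR 0.0194). The untreated libraries of the clones did not overlap, as DKO_A1 had 156, 164 and 169 CPM. After IL-1β Nr1d1 was lower in DKO_A2, with 14.4, 13.1 and 7.32 CPM against 22.2, 26.0 and 16.3 CPM in DKO_A1 (-0.89 ± 0.33, FDR 0.0462). Per3 was lower as well (-0.45 ± 0.17, FDR 0.0496). Thus 1 of 10 clock genes was called lower untreated, beside 16.7% of all genes, and 3 of 10 after IL-1β, beside 15.6%. The Per3 and Nr1d1 calls were lost in several settings. With unstranded counts they had FDRs of 0.0529 and 0.0563 and with upper quartile scaling 0.0606 and 0.056. Each of the 3 calls after IL-1β was also lost without some single library, Nr1d1 for instance without DKO_A2 replicate 3 (-0.65) and Clock without DKO_A1 replicate 3 (-0.19). With the replicate block, fitted over all 24 libraries, 6 clock genes were called after IL-1β, beside 44.4% of all genes. Nr1d1 then had -0.92 ± 0.17 (FDR 0.000128). Per1 (0.21, FDR 0.0333), Cry2 (0.22, FDR 0.0279) and Nr1d2 (-0.40, FDR 0.0138) were added.

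IL-1β itself was compared with no treatment within each genotype, after 6 hours. In the fit without pairing and with the filter on low counts, no clock gene was called in any genotype by edgeR's quasi-likelihood test, nor by DESeq2. With no filter 2 were called lower in KO and 1 in DKO_A2, where 1428 and 1643 of all genes were called. In the fit with the filter 2.26% of all genes were called in WT, 4.74% in KO, 1.99% in DKO_A1 and 5.68% in DKO_A2. At an unadjusted p under 0.05 there were 0 clock genes in WT, 2 in KO, 0 in DKO_A1 and 1 in DKO_A2, where 11.4%, 14.7%, 10.7% and 17.6% of all genes had one. Those were Per3 and Dbp in KO and Per3 in DKO_A2. Their log2 values were -0.41 ± 0.17 (FDR 0.231) for Per3 in KO, -0.69 ± 0.25 (FDR 0.154) for Dbp in KO and -0.41 ± 0.17 (FDR 0.183) for Per3 in DKO_A2. The intervals were narrow for Clock, -0.15 to 0.15 in WT and -0.13 to 0.18 in KO, and wide for Arntl, -0.50 to 0.71 in WT and -0.50 to 0.72 in KO, in this fit without pairing.

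Untreated and IL-1β libraries of a genotype with the same number moved together around their group means, so the pairs were also read one by one. Per3 was lower in the IL-1β library in 12 of 12 pairs, by 0.13 to 0.63 on the log2 scale. Its values in KO were 28.9, 27.7 and 21.6 CPM untreated and 21.7, 19.7 and 17.5 CPM after IL-1β. Dbp was lower in 12 of 12 pairs as well, with a median of -0.44 and a range from -0.99 to -0.08. Dbp had 6.52, 6.98 and 4.57 CPM untreated and 4.77, 3.49 and 2.97 CPM after IL-1β in KO. Over all genes 14.7% went 1 way in all 12 pairs, 1645 genes lower and 935 higher. Arntl, Per1, Cry1 and Cry2 were higher in 9 of 12 pairs, and Clock in 6 of 12. The 3 lower pairs of Per1 were those of WT. Nr1d2 was lower in 9 of 12 pairs and Nr1d1 in 7 of 12. Per2 split by genotype, lower in 3 of 3 pairs of WT (-0.28 to -0.06) and of DKO_A1 (-0.32 to -0.06) and higher in 3 of 3 of KO (0.01 to 0.19) and of DKO_A2 (0.09 to 0.17). For Per2 the difference of these responses between genotypes was not called.

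With pairs as a block inside every genotype (the replicate block within genotype), Per3 was called lower after IL-1β in every genotype. The log2 fold changes were -0.23 ± 0.08 in WT (FDR 0.0417), -0.40 ± 0.07 in KO (FDR 0.000173), -0.25 ± 0.07 in DKO_A1 (FDR 0.0146) and -0.41 ± 0.07 in DKO_A2 (FDR 0.000153). Dbp was called lower in KO (-0.69 ± 0.13, FDR 0.000292) and in DKO_A2 (-0.48 ± 0.12, FDR 0.00397). In WT it had -0.43 ± 0.16 (FDR 0.0737) and in DKO_A1 -0.31 ± 0.13 (FDR 0.103). Cry1 was called higher in KO (0.19 ± 0.06, FDR 0.0235) and DKO_A2 (0.27 ± 0.06, FDR 0.00171), and so was Per1 (0.14, FDR 0.0383 and 0.15, FDR 0.0204). Arntl was not called with this block but had a smaller error, at 0.11 ± 0.07 in WT (FDR 0.381), 0.11 ± 0.08 in KO (FDR 0.355), 0.04 ± 0.08 in DKO_A1 (FDR 0.829) and -0.06 ± 0.08 in DKO_A2 (FDR 0.66). The block thus gave 1 clock gene in WT, 4 in KO, 1 in DKO_A1 and 4 in DKO_A2, where it called 16.1%, 22.6%, 16.3% and 26% of all genes. The responses of KO and WT, of DKO_A1 and KO, and of DKO_A2 and KO were also compared with each other. No clock gene was called in these differences, with or without the block or by DESeq2, and none had an unadjusted p under 0.05 without the block. Without the block 0.245%, 0.0285% and 0% of all genes were called in them and 5.62%, 2.47% and 2.21% had an unadjusted p under 0.05. With the block within genotype 5.72%, 1.52% and 1.04% of all genes were called. At an unadjusted p under 0.05 with that block, 3 of 10 clock genes stood between KO and WT (Per1, Per2 and Nr1d1), 3 between DKO_A1 and KO (Per2, Cry2 and Dbp) and 0 between DKO_A2 and KO, where 16.6%, 9.27% and 9.9% of all genes did. Between KO and WT the Per3 responses differed by -0.17 without the block (interval -0.64 to 0.29) and by -0.17 ± 0.10 with it (FDR 0.448). A difference of that size could thus not be told from none.

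**Figure D3:**
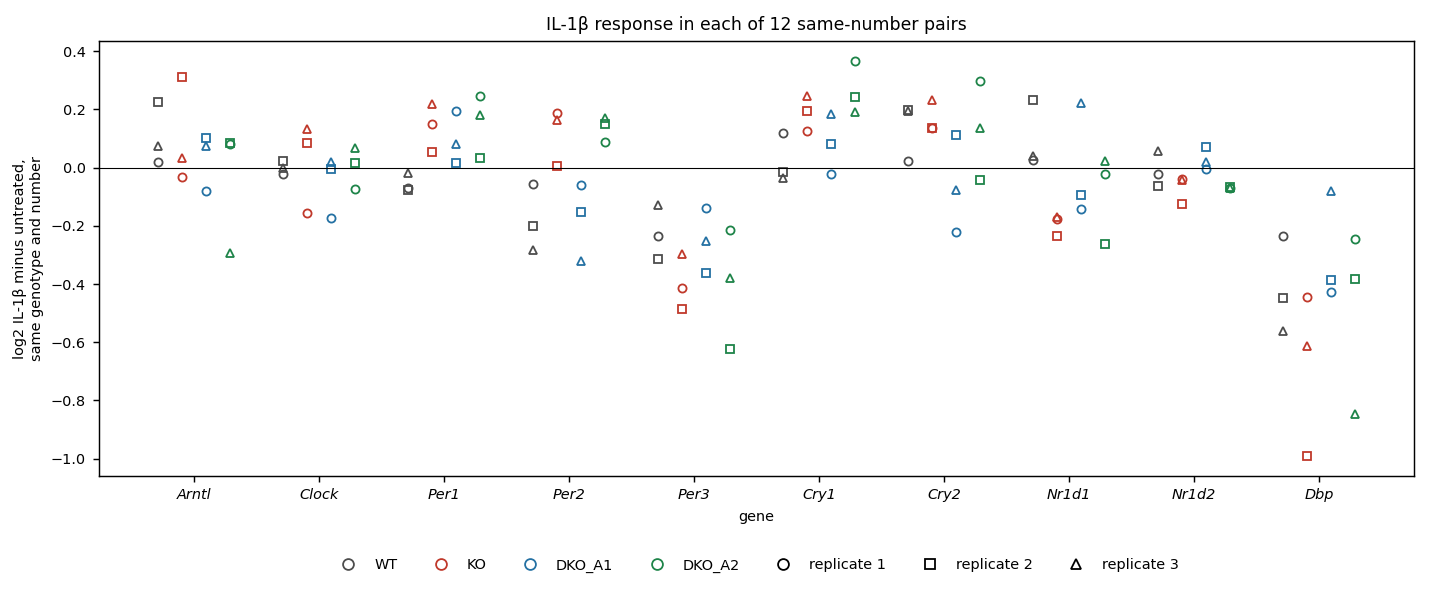
Log2 difference between the IL-1β and the untreated library of the same genotype and replicate number (y axis) for each clock gene (x axis), with colours for genotypes and shapes for replicate numbers. All 12 pairs lie below 0 for Per3 and for Dbp, the pairs of Arntl and Clock lie on both sides, and those of Per2 lie below 0 in WT and DKO_A1 and above it in KO and DKO_A2.

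The libraries of a group also differed among themselves in the clock genes, and did so by replicate number. Arntl was highest in the library numbered 3 in 8 of 8 groups and lowest in number 1 in 7 of them. In untreated KO cells it had 16.5, 20.6 and 29.4 CPM in numbers 1, 2 and 3, and in untreated DKO_A2 9.89, 13.4 and 25.9 CPM. Several genes that CLOCK and BMAL1 drive stood the other way. Nr1d2, Per1 and Per2 were lowest in number 3 in 8 of 8 groups, Nr1d1 in 7 of 8, and Dbp and Per3 in 6 of 8. Nr1d2 had 99.0, 82.8 and 54.5 CPM in untreated KO and 98.0, 83.7 and 45.8 CPM in untreated DKO_A2. Nr1d1 had 19.7, 14.9 and 9.12 CPM in untreated KO. Cry1 was highest in number 3 in 6 of 8 groups. Cry2 and Clock had no number at the same end in more than 5 groups. Thus number 3 was at one end in all 8 groups for 4 of 10 clock genes, beside 6.73% of all genes and 1 of 27 other tested clock genes, Tef. Number 3 was singled out after these values were seen. With any 1 of the 3 numbers at one end in all 8 groups, the counts were 4 of 10 clock genes and 7 of 27 other clock genes, beside 20.7% of all genes.

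The size of this spread differed between genes and groups. The ratio of number 3 to number 1 for Arntl ran from 1.18 in untreated WT to 2.62 in untreated DKO_A2, with a median of 1.75. For Nr1d1 it ran from 0.464 in untreated KO to 0.862 in WT after IL-1β, and for Nr1d2 from 0.467 in untreated DKO_A2 to 0.872 in WT after IL-1β. Per2 had ratios of 0.534 to 0.805, with the lowest in WT after IL-1β. Both WT groups thus had the ratios nearest to 1 for Arntl, Nr1d1 and Nr1d2 but not for Per2, and a difference between genotypes in this spread was not tested. Averaged over the 8 groups, number 3 deviated from the group mean by 0.40 on the log2 scale for Arntl, -0.45 for Nr1d1, -0.40 for Nr1d2 and -0.36 for Per2. The estimated coefficient of variation between libraries of a group was 0.265 for Arntl, 0.279 for Nr1d1 and 0.237 for Nr1d2. These lay at percentiles 97.7, 96.7 and 98.8 among genes of like level, while Cry2, at 0.0803, lay at percentile 28.7 and Clock, at 0.0724, at 47.3. The standard errors of Arntl and the Nr1d genes in all comparisons without the block hold this spread. The labels do not say what a number marks, libraries of the same number may share a culture or a day, and this was not tested.

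**Figure D4:**
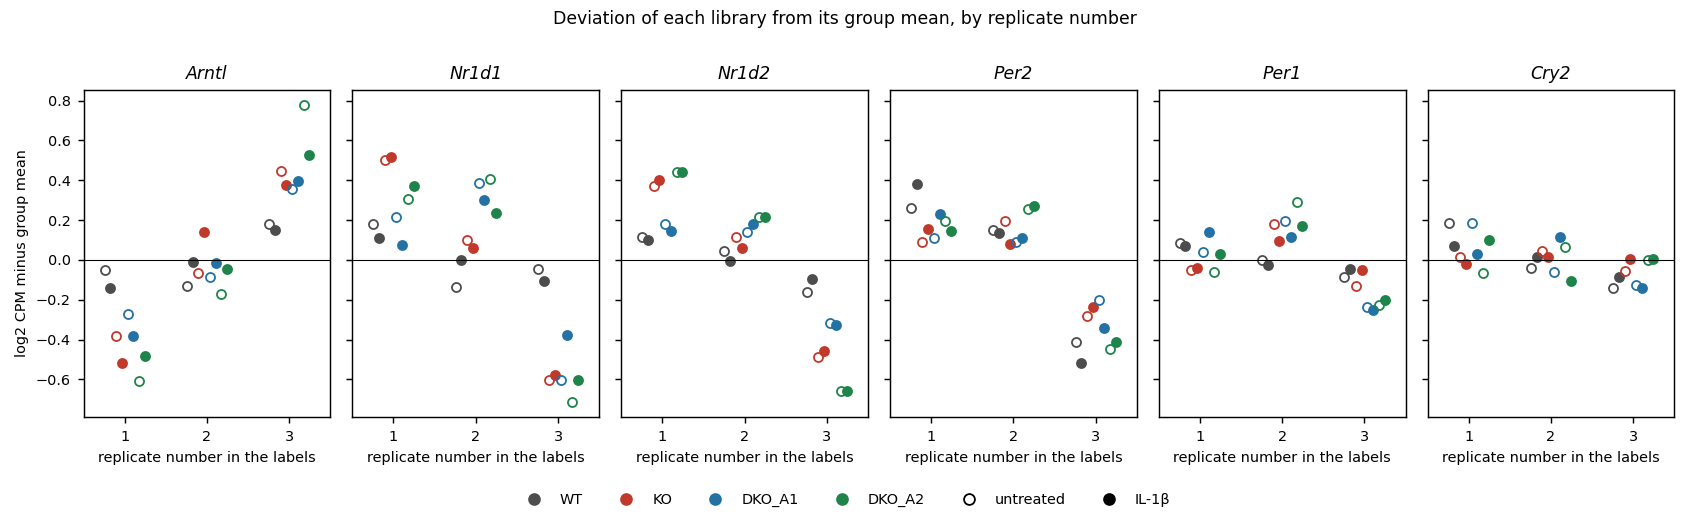
Deviation of each library from its group mean in log2 CPM (y axis) by replicate number in the labels (x axis) for 6 clock genes, with colours for genotypes, open symbols for untreated and filled symbols for IL-1β libraries. Arntl lies above 0 in all 8 libraries numbered 3 and Nr1d1, Nr1d2, Per2 and Per1 below 0 in all of them, while Cry2 shows no such separation.

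Among 28 further clock genes, 27 were tested (all but Npas2). In untreated KO against WT 11 were called higher and 7 lower, and after IL-1β 14 higher and 9 lower, with medians of 0.25 in each, against 0.04 and 0.03 over all genes. Of all genes tested, 30.1% were higher and 25.8% lower untreated, and 30.2% and 27.1% after IL-1β. The largest differences were in genes close to absent from WT cells. Hlf, which encodes a factor of the same family as DBP, was at 0.118 CPM in untreated WT, at 88.5 in KO, 41.4 in DKO_A1 and 10.1 in DKO_A2, as group means. Rorb, a receptor gene of the ROR family, was at 0.0385 CPM in untreated WT, 34.6 in KO, 7.81 in DKO_A1 and 9.03 in DKO_A2. These genes had at most 10 counts in any WT library, so no fold is given for them, nor for Arntl2, at 0.114 CPM in untreated WT and 0.373 in KO. Rora was higher by 1.25 untreated and 2.03 after IL-1β on the log2 scale, and Tef, the third gene of the Dbp family, by 1.23 and 1.13. Lower in KO cells were Bhlhe41 (-2.89 and -3.00), which encodes an E-box repressor, and Sirt1 (-1.29 and -1.37), a deacetylase gene.

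Against KO, 4 of these genes were higher and 7 lower in each clone untreated, and after IL-1β 6 were higher and 6 lower in DKO_A1 and 5 higher and 6 lower in DKO_A2. Of all genes, 18.9% were higher and 16.4% lower in untreated DKO_A1, 17.1% and 15.1% in untreated DKO_A2, 19.4% and 17.3% in DKO_A1 after IL-1β, and 17.1% and 15.8% in DKO_A2 after IL-1β. Called lower in both clones under both treatments were Rorb (-2.15, -1.94, -1.86 and -1.95 for DKO_A1 and DKO_A2 untreated, then after IL-1β), Ciart (-0.83, -1.21, -0.89 and -0.67), which encodes a repressor of CLOCK and BMAL1, and Btrc (-0.47, -0.45, -0.46 and -0.37), a ligase gene for PER proteins. Called higher in all 4 were Sirt1 (0.32, 0.38, 0.29 and 0.35) and Fbxw11 (0.36, 0.32, 0.36 and 0.29), the paralog of Btrc. For the IL-1β effect 1 of the 27 was called in KO, Fbxl21, and 2 in DKO_A2, Ciart and Nfil3, all higher, and 0 in WT and DKO_A1. Of all genes 4.74% were called in KO, 5.68% in DKO_A2, 2.26% in WT and 1.99% in DKO_A1.

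Of 10 established target genes of CREB, 7 were called higher in untreated KO than in WT and 8 after IL-1β, and none lower, with medians of 0.94 and 0.81, where 30.1% and 30.2% of all genes were higher. Against KO, 7 of 10 were lower in each clone untreated, 7 in DKO_A1 and 8 in DKO_A2 after IL-1β, with medians of -0.84, -0.70, -0.98 and -0.88. The shares of all genes lower in these comparisons were 16.4%, 15.1%, 17.3% and 15.8%. The comparisons with WT and with the clones share the KO libraries. In KO against WT, Nr4a1 had log2 fold changes of 0.83 untreated and 1.02 after IL-1β, Nr4a2 1.36 and 1.49, and Nr4a3 1.93 and 2.08. The phosphodiesterase genes Pde4b (5.70 and 5.16) and Pde4d (1.76 and 1.56), the kinase gene Sik1 (1.05 and 0.61) and the phosphatase gene Dusp1 (0.37 and 0.50) were also higher in both. Among the clock genes Per1, a CREB target with TGACG in its printed window, was at 38.0, 35.8 and 33.8 CPM in untreated WT and at 37.1, 43.6 and 35.1 CPM in untreated KO, with overlap. In untreated DKO_A1 it had 34.6, 38.6 and 28.6 CPM and in DKO_A2 35.9, 45.9 and 32.1 CPM, which overlapped both. After IL-1β Per1 had 36.2, 33.9 and 33.3 CPM in WT and 41.2, 45.2 and 40.8 CPM in KO, without overlap. There it was called higher in KO with the replicate block, as given above, and not without it. Against KO after IL-1β Per1 had -0.23 ± 0.13 in DKO_A1 without the block and -0.23 ± 0.08 (FDR 0.018) with it, and in DKO_A2 -0.01 ± 0.13 and -0.02 ± 0.08.

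For each clock gene the genes with the most similar pattern were taken by Pearson's r of the mean log2 CPM over the 8 groups, among 9623 genes with a mean log2 CPM above 3. Points share libraries and scaling, and r over 8 group means is a description. Nr1d1 and Nr1d2, the REV-ERB genes, were in each other's closest 3, at r = 0.989, next to Ryk (0.990 with Nr1d1). Of the other members none had another member among its closest 3. Dbp, with a mean log2 CPM of 2.26, was not a candidate and could not be among them. Cry2 was nearest to Prrg1 (0.997), Per2 to Cdc25b (0.993) and Dbp to Smad9 (0.994). Arntl was nearest to Chuk (0.994), Clock to Rps6ka4 (0.990) and Cry1 to Rpl10a (0.989). Per3 was nearest to Bbs7 (0.991), and Per1 to Morc3 at the lower value of 0.935. Among the 10 genes themselves, Per2 and Cry2 had r = 0.925, and Arntl and Cry1 0.885. Cry1 and Per3 stood opposite, at -0.912, as did Cry1 and Dbp at -0.896.

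The genes lie on 8 chromosomes (GRCm38), and some share sequence with a gene on the other strand. Exons of Nr1d1 (chr11:98767932-98775333, - strand) overlap exons of Thra by 263 bases, and those of Dbp (chr7:45705088-45710203, + strand) overlap Sphk2 by 539 bases. Exons of Cry2 (chr2:92403646-92434043, - strand) overlap the transcript D930015M05Rik by 295 bases. Counts were read by strand, and 95.5% to 96.0% of the stranded counts of a library were on the strand used, so a small share of such reads can cross over. Arntl lies at chr7:113207465-113314126 on the + strand, where 33 exonic bases overlap the antisense gene Gm45355. Clock lies at chr5:76209868-76304792, Cry1 at chr10:85131700-85185064, Per2 at chr1:91415982-91459324 and Per3 at chr4:151003652-151044665, all on the - strand. Per1 lies at chr11:69095217-69109960 on the + strand and Nr1d2 at chr14:18204054-18239127 on the - strand.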

How the data were processed

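RNA-seq libraries of MEFs were analysed from per-gene tables. The authors trimmed reads with Trim Galore 0.6.0, aligned them to GRCm38.p6 with GENCODE vM24 annotation using STAR 2.7.8a, and deposited STAR's whole-number read counts per gene, not normalized. The labels and the study's methods name different library kits. Counts of the reverse-stranded setting were used, and 4 lines that name no gene (26.7% to 34.4% of counts, median 28.9%) were left out. Symbols (for 55144 of 55471 identifiers), positions and exon lengths for RPKM came from GENCODE M21.

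Groups came from the labels, 1 per genotype and treatment. Genes were filtered with filterByExpr (minimum count 10, minimum total 15), scaled with TMM (factors 0.922 to 1.09) and fitted in edgeR 4.0.16 (R 4.3.3, limma 3.58.1) with the older quasi-likelihood method, 1 coefficient per group over all 24 libraries, as the study did. The common coefficient of variation was 0.129. In all, 19 contrasts were tested with Benjamini-Hochberg adjustment at 0.05. The SE is the log2 fold change divided by the square root of the F statistic, and 95% intervals are 1.96 SE to either side. The fit was checked on simulated data. Named were all 10 clock genes, Stk11 and Crtc2 as label checks, other clock genes called with an absolute log2 fold change over 1 in KO against WT under both treatments or called 1 way in both clones under both treatments, CREB targets called 1 way in KO against WT under both treatments, and the 3 genes of most similar pattern to each member. The members and lists were chosen with earlier results of these data known. Genes given by name beyond this rule (Kdr, Thy1, Pdgfra, Col1a2, Fbxl21, Nfil3) were picked with their values known, and some genes that meet the rule are not reported here.

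The replicate numbers were checked as pairs by the correlation of deviations from group means. The 84 correlations lay between 0.0355 and 0.589 (median 0.222), and 15 were at or under 0.1. Within a genotype all 12 exceeded 0.1 (0.130 to 0.589), and so did all of KO with WT after IL-1β, DKO_A2 with KO under both treatments, and DKO_A1 with KO and with DKO_A2 after IL-1β. These were taken as paired, from the data and not from the labels. The replicate block was fitted as 1 effect per replicate number shared by all 24 libraries, also those of groups not taken as paired. It takes that effect as equal in every group, while the spread by number differed between groups. The block within genotype had its own effects in each genotype. Alternatives were unstranded counts, DESeq2's size factors, upper quartile scaling, the newer quasi-likelihood method, no filter, at least 10 counts in every library, replicate blocks, DESeq2 1.42.0, fits of the compared groups alone, and omission of single libraries.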

Additional observations from a re-analysis of the deposited data

Results flagged for a closer look

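A set of 4 differences between the clones was flagged, each tested by the direct contrast of DKO_A2 with DKO_A1. The effects of the 2 clones against the same KO libraries differed there. They were 1 of 10 clock genes untreated and 3 of 10 after IL-1β, all lower. Of all genes, 16.7% and 15.6% were called lower, and 5692 and 5374 of 17522 were called in either direction. Clock differed by -0.30 between untreated DKO_A2 and DKO_A1 (FDR 0.00506), with -0.15 in DKO_A1 and -0.45 in DKO_A2 against KO. After IL-1β Clock differed by -0.25 (FDR 0.0194), with -0.22 and -0.47 against KO. Per3 differed by -0.45 after IL-1β (FDR 0.0496), with 0.25 in DKO_A1 and -0.19 in DKO_A2 against KO. Nr1d1 differed by -0.89 after IL-1β (FDR 0.0462), with 0.76 in DKO_A1 and -0.13 in DKO_A2 against KO. The calls of Per3 and Nr1d1 were near the threshold. Both were lost with unstranded counts (FDR 0.0529 and 0.0563) and with upper quartile scaling (FDR 0.0606 and 0.056), and without DKO_A1 replicate 1 or 2 or DKO_A2 replicate 2 or 3, with FDRs up to 0.246 for Per3 and 0.203 for Nr1d1 (each without DKO_A2 replicate 3). Per3 was also lost with DESeq2 size factors (FDR 0.0573), with at least 10 counts in every library (FDR 0.0547), with only the groups compared (FDR 0.0693) and without DKO_A1 replicate 3 (FDR 0.0642). The call of Clock after IL-1β was lost without DKO_A2 replicate 1 (FDR 0.0546) or DKO_A1 replicate 2 or 3 (FDR 0.0777 and 0.0731). With the replicate block, which called 44.4% of all genes, the calls after IL-1β were kept. Clock then had -0.25 (FDR 0.00161), Per3 -0.46 (FDR 0.00279) and Nr1d1 -0.92 (FDR 0.000128). FDRs are from edgeR's quasi-likelihood test with Benjamini-Hochberg adjustment. Each DKO genotype is 1 clone, so what separates the clones was not tested.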

How the results depend on the processing

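Of the 51 calls made on the clock genes over all contrasts, 46 held in every other setting and 39 without each library in turn, and the same 39 held in both. Among member values called in at least 1 setting with all libraries, none turned its direction in another such setting, and leaving out libraries turned 1, Nr1d2 in untreated DKO_A2 against DKO_A1, within a range from -0.49 to 0.0151 (without DKO_A2 replicate 3), which was not called either way. Of all 190 member values, 12 others, called in no setting and between -0.08 and 0.04 as reported, changed sign in another setting. Without 1 library 67 values called in no setting changed sign. These lay between -0.29 and 0.19 as reported and between -0.32 and 0.39 after the change. Counts of called clock genes moved by over 1.5 times as follows. In untreated DKO_A1 against KO the count of 1 became 4 with no filter, 2 with at least 10 counts in every library, 5 with the replicate block and 4 with only the groups compared. In untreated DKO_A2 against KO the 3 became 5 with the block. After IL-1β the 3 of DKO_A1 against KO became 6 with no filter and 7 with the block, and the 3 of DKO_A2 became 5 in both. Between the clones the 1 became 4 with no filter and 5 with the block untreated, and the 3 became 1 with unstranded counts, 1 with upper quartile scaling and 6 with the block after IL-1β. For the IL-1β effect the 0 became 2 in KO and 1 in DKO_A2 with no filter, 2 and 2 with the block, and 1, 4, 1 and 4 in WT, KO, DKO_A1 and DKO_A2 with the block within genotype. The blocks take up spread by replicate number. With the replicate block 45.9% of all genes were called in untreated DKO_A2 against KO. After IL-1β it called 49.1% in DKO_A1 and 46.6% in DKO_A2 against KO, and 44.4% between the clones. The block within genotype called 16.1%, 22.6%, 16.3% and 26% in WT, KO, DKO_A1 and DKO_A2. For the other counts here no share of all genes is given, so they are not read as particular to the clock genes. The cause of the moves in settings other than the blocks was not tested. Without 1 library at a time the count of DKO_A1 against KO after IL-1β ran from 1 to 4, and those between the clones from 1 to 2 untreated (2 without DKO_A1 replicate 3) and 0 to 2 after IL-1β (0 without DKO_A1 replicate 2, and 1 without DKO_A1 replicate 1 or 3 or DKO_A2 replicate 2 or 3).

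Counts over all genes moved more for the IL-1β effect. In WT 396 became 954 with no filter, 1629 with the block, 2823 with the block within genotype and 624 with DESeq2. In KO 831 became 1428, 2601 and 3966 in the first 3 of these, in DKO_A1 348 became 908, 1684, 2860 and, with DESeq2, 573, and in DKO_A2 995 became 1643, 3133 and 4557, and 246 with only the groups compared. For the difference of the KO and WT responses 43 became 76 with upper quartile scaling, 347 with no filter, 70 with at least 10 counts in every library, 311 and 1003 with the blocks, 70 with only the groups compared and 121 with DESeq2. For DKO_A1 and KO 5 became 3 with unstranded counts, 3 with upper quartile scaling, 141 with no filter, 36 and 267 with the blocks and 12 with DESeq2. For DKO_A2 and KO 0 became 1, 68, 18, 183 and 12 in the same settings after the first. Upper quartile scaling moved the median log2 fold change of all genes from 0.04 to 0.12 untreated and from 0.03 to 0.14 after IL-1β in KO against WT, and the share of higher calls for IL-1β in WT from 67.7% to 57.4%.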
